A study of Mus musculus with 6 samples.

Results

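Mitochondria make most of a cell's ATP with 5 protein complexes in their inner membrane. Complex I takes electrons from NADH and complex II from succinate, complex III passes them to cytochrome c, complex IV hands them to oxygen, and complex V, the ATP synthase, uses the proton gradient that complexes I, III and IV build. A few core subunits are encoded by mitochondrial DNA, which is not analysed here, and the others are encoded in the nucleus, made in the cytosol and imported. The genes described here are those nuclear subunit genes, taken by symbol: the Nduf family of complex I, Sdha to Sdhd of complex II, the Uqcr family of complex III, the Cox4 to Cox8 families of complex IV and the Atp5 family of complex V. The rule found 83 genes among the 24982 rows of the count matrix, of which 36 belong to complex I, 4 to complex II, 8 to complex III, 18 to complex IV and 17 to complex V. The rule reads symbols only, and it was set with earlier results of these data known.

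RNA came from keratinocytes sorted out of mouse dorsal skin as the Lgr6 lineage and stained for CD49f, in 6 libraries: 1 per body side of 3 animals numbered 890, 892 and 899. All animals carried Lgr6-EGFP-Ires-CreERT2 and R26loxP-stop-loxP-tdTom, so that Cre acts only in cells that express Lgr6 and leaves them and their descendants red. All had 20 µg tamoxifen at postnatal day 42, the same midline incision, anaesthesia and analgesic, and single housing after surgery. In the denervated group (left side) the cutaneous nerves had been removed 4 weeks before sampling, and in the normal group (right side) of the same animals they were left in place. No sham dissection of the right side is described, so the effects of losing nerves, of dissection and of the side itself cannot be told apart. No other strain, sex or batch detail is used here.

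The libraries held between 9610071 and 26167593 counts, with the fewest in the denervated library of animal 890, so that a floor of 3 counts lay between 0.115 and 0.312 CPM (counts scaled to library size). The basal keratinocyte markers Krt5, Krt14, Itga6, Itgb4, Trp63, Col17a1 and Lgr6, together summed to 41860 to 42460 CPM in the normal and 40300 to 46250 CPM in the denervated libraries. Of the other cell types, immune markers were the most abundant, led by Cd74 and Cd207, at 55.7 to 96.5 CPM in normal and 79.1 to 99.9 CPM in denervated libraries. Fibroblast, skeletal muscle, adipocyte, endothelial and Schwann or melanocyte lists each summed to less than 5 CPM in every library, with Lum, Myh1, Plin1, Cidec, Fabp4 and Cdh5 at 0. In a bulk sample a lower value can mean fewer cells of a type or less RNA per cell, which cannot be told apart.

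Many of these genes have processed pseudogenes, DNA copies of their messenger RNA elsewhere in the genome, and a short read from a shared stretch cannot be placed in either. The stretches below, cut from GENCODE transcripts of the mm10 genome, show how alike such copies are. Each is 60 bases of a member's coding exons, read 5′ to 3′, above the same stretch of its closest copy, and capitals mark bases that differ. Cox7c (chr13:86044816-86046904, minus strand), a small complex IV subunit, and Gm12338 (chr11:75599763-75599954, minus strand) are identical over all 192 coding bases.
Cox7c: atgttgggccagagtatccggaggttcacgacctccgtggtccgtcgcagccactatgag
Gm12338: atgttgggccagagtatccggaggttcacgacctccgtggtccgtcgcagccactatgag
Ndufs5 (chr4:123712710-123718202, minus strand), an accessory subunit of complex I, and BC002163 (chr16:42955631-42955949, plus strand) differ at 2 of 319 aligned bases, both in this stretch.
Ndufs5: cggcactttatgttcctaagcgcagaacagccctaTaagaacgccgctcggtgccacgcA
BC002163: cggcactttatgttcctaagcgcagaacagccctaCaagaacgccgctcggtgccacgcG
Atp5l (chr9:44912557-44920742, minus strand), the membrane subunit g of ATP synthase, and Atp5l2-ps (chr11:97768060-97768371, plus strand) differ at 2 of 312 bases, 1 of them here.
Atp5l: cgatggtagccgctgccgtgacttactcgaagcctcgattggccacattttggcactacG
Atp5l2-ps: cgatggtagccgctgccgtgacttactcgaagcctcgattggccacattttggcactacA
Atp5o (chr16:91925214-91931687, minus strand), the stalk subunit that sensitises ATP synthase to oligomycin, has diverged further from Gm5436 (chr12:84258331-84258973, minus strand), with 19 of 642 bases different and 5 of them here.
Atp5o: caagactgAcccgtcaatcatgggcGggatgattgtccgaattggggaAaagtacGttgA
Gm5436: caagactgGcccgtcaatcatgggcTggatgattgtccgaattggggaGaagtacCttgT

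The deposited files give 2 kinds of count per gene, the whole-number counts of the matrix and the estimated counts of the per-sample files, which divide reads that fit several genes among them. All 75 members with at least 100 estimated counts over the 6 libraries were compared on both. The whole-number count came to less than 90% of the estimate in 15 of these members (20.0%), against 9.25% of the 11941 genes with as many estimated counts. A copy of the coding sequence in another GENCODE gene (at least 95% identical over at least 80% of its length) was found for 13 of those 15 and for 5 of the other 60. Cox7a2l and Cox8a had fewer whole-number counts without such a copy. Atp5l had 1.04% of its estimated counts in the matrix, Atp5g2 18.3%, Cox7c 18.7%, Ndufb4 18.9%, Ndufa12 43.2% and Cox7a2l 43.9%. Atp5l, with 8 copies of which 7 are annotated pseudogenes, was listed with 20, 26 and 19 counts in the normal and 1, 17 and 16 in the denervated libraries of animals 890, 892 and 899. Its level in TPM (transcript abundance scaled to library size and gene length) was nevertheless 595, 670.7 and 667.7 on the normal and 570.7, 608.5 and 581.3 on the denervated side. Atp5o, with the more diverged copy printed above, kept 92.7% of its estimate. How the count tool treated reads that fit several places is not given in the sources used here, and its part in these values was not tested.

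**Figure D1:**
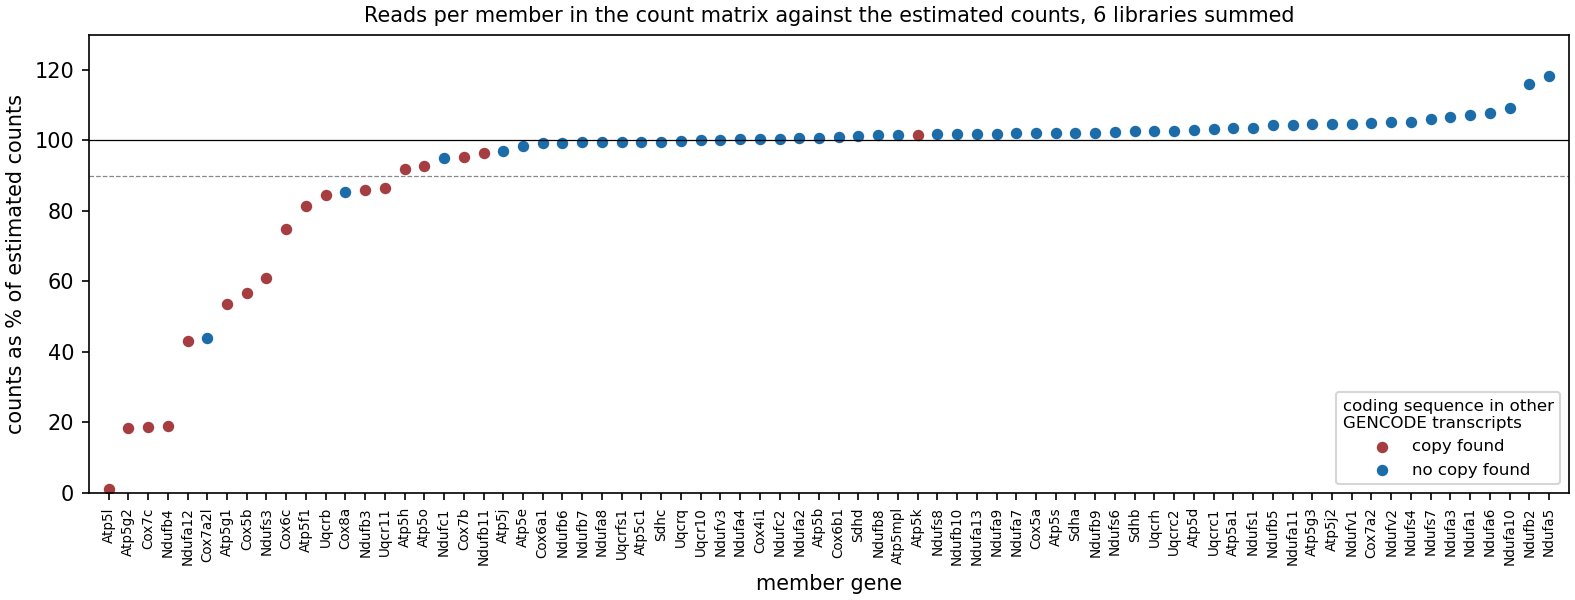
Whole-number counts as a percentage of estimated counts (y axis), summed over 6 libraries, for 74 of the 75 members with at least 100 estimated counts (x axis, ordered by value), coloured by whether another GENCODE gene holds a copy of the coding sequence. The solid line is 100% and the dashed line 90%, below which lie 15 members, 13 of them with a copy.

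Ndufs5 was listed at 0 in all 6 libraries of the count matrix and at 5.9 estimated counts in all. Its copy BC002163, annotated as a processed pseudogene, had 25 whole-number counts and 2464.4 estimated counts, with a TPM of 170 ± 22.2 (SD, n = 3) on the normal and 169 ± 26.6 (SD, n = 3) on the denervated side. These values differed by a log2 fold change of 0.02 ± 0.11 (SE; adjusted p = 0.934, edgeR on the estimated counts). Given the few differing bases printed above, the level of Ndufs5 is not separated from that of its copy in these files. Ndufb4c, whose sequence equals the coding sequence of Ndufb4, had 450.9 estimated counts and 0 whole-number counts.

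Subunit genes were expressed at high levels. The median member stood at 152 TPM (mean over the 6 libraries), against 18.9 TPM for the 12310 genes with enough counts to be tested. The median was 103 TPM over the 35 members of complex I with at least 1 TPM, 82.7 in complex II, 260 in complex III, 326 over 12 members of complex IV and 384 in complex V. Among members with at least 1 TPM the coefficient of variation over the 6 libraries had a median of 8.01%, against 12.5% over the 11485 tested genes at that level. The members are also short, with a median deposited length of 692 bases against 2891 for tested genes. Together they made up 1.80% ± 0.0931 (SD, n = 3) of all TPM on the normal side and 1.69% ± 0.0893 (SD, n = 3) on the denervated side.

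**Figure D2:**
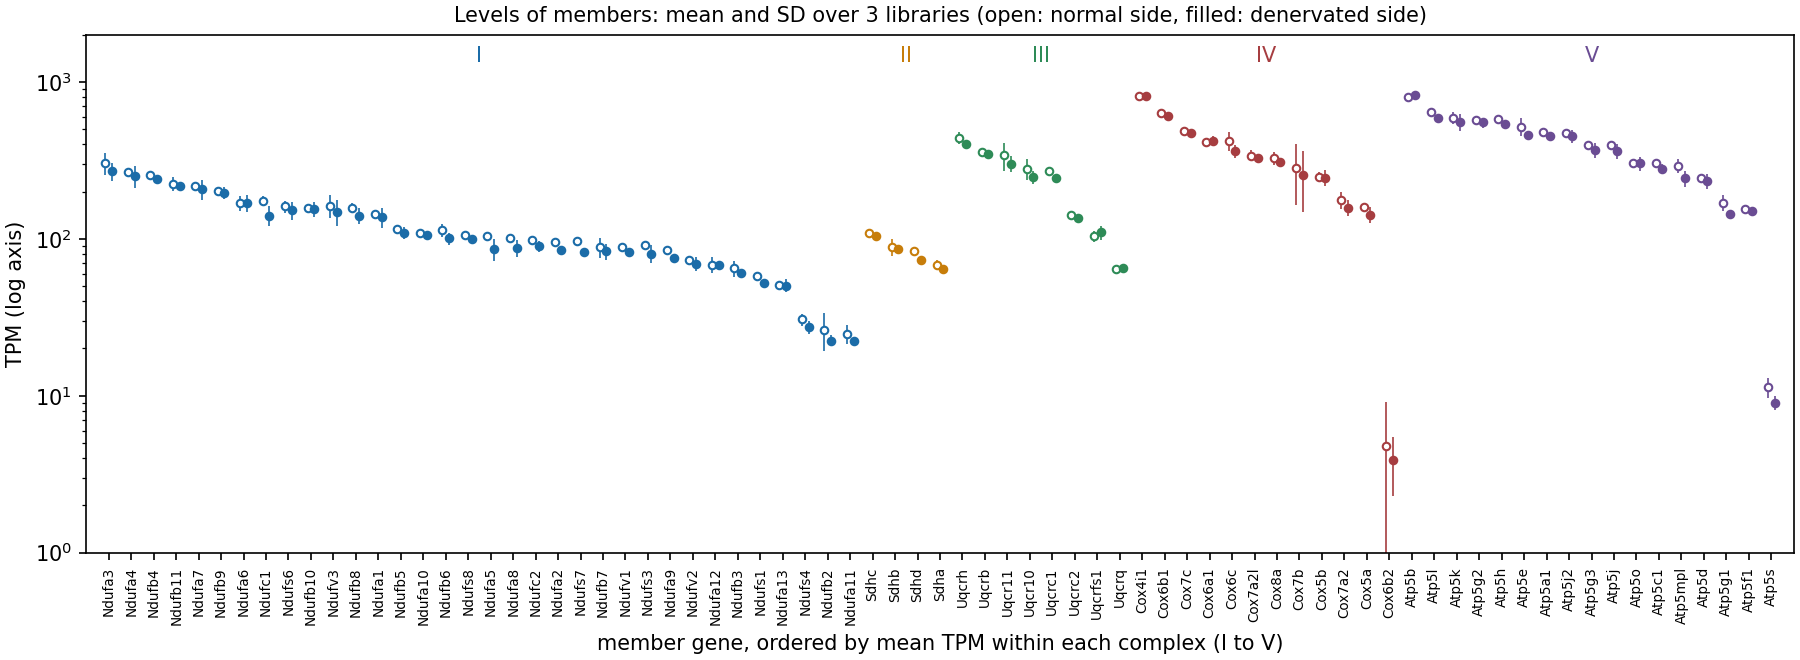
TPM of 75 of the 76 members with a mean of at least 1 TPM (log axis), ordered within each complex, with open points for the mean of the 3 normal and filled points for the 3 denervated libraries and bars for the SD (the lower bar of Cox6b2 leaves the axis). Most members lie between about 50 and 800 TPM, with the 2 sides close to each other and long bars at Cox7b and Cox6b2.

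In complex I the most abundant subunit genes per length were Ndufa3, Ndufa4 and Ndufb4. Ndufa3, a small accessory subunit, stood at 257, 354.4 and 302.2 TPM in the normal and 245.9, 311.9 and 252 TPM in the denervated libraries. Ndufa4, which was named for complex I and is found with complex IV, had 253.3, 262.6 and 285.8 TPM on the normal and 257.6, 287.7 and 209.2 TPM on the denervated side. Ndufb4 had 245.3, 261.3 and 255.9 TPM against 253.5, 242.4 and 222.2 TPM. The 2 sides overlapped in each of these genes, and animal 892 was the highest for Ndufa3 on both sides. Among core subunits that carry the electrons, Ndufs1, the largest iron-sulfur subunit, averaged 55.1 TPM, Ndufv1, which binds NADH, 85.7 TPM and Ndufs7 89.4 TPM. Other members of complex I were lower still, such as Ndufa11 at 23.5 TPM and Ndufb2 at 24.4 TPM, so these levels do not set core subunits apart.

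Complex II, the only one of the 5 with no mitochondrially encoded subunit and also an enzyme of the citric acid cycle, was the lowest of the 5. The membrane anchor Sdhc stood at 102.9, 114.3 and 110.3 TPM on the normal and 106, 104.1 and 103.4 TPM on the denervated side. The iron-sulfur subunit Sdhb averaged 87.1 TPM, the second anchor Sdhd 78.4 TPM and the flavoprotein Sdha 66.5 TPM. These 4 levels lay within a factor of 2 of each other.

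In complex III the hinge protein Uqcrh led, with 414, 488 and 420.8 TPM in the normal and 415, 403 and 386.4 TPM in the denervated libraries. Uqcrb, which contributes to ubiquinone binding, averaged 352 TPM and Uqcr11 320.5 TPM. Uqcrfs1, the Rieske iron-sulfur protein and a catalytic subunit, averaged 107 TPM and Uqcrq, a ubiquinone-binding subunit, 65.0 TPM.

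In complex IV the isoform families split sharply. Cox4i1, the common form of the regulatory subunit, stood at 785.6, 850.5 and 815.8 TPM on the normal and 838.3, 825 and 781.8 TPM on the denervated side, while its lung-enriched relative Cox4i2 had 2, 0 and 0 counts and 0, 0 and 2 counts. Cox6a1 averaged 418 TPM, and Cox6a2, the heart and muscle form, was listed at 0 counts in all 6 libraries. Cox6b1 averaged 621 TPM, and its testis form Cox6b2 reached 9.79 TPM at most, with 9, 31 and 5 counts on the normal and 4, 11 and 9 on the denervated side. Cox7a2 averaged 168 TPM and Cox7a2l, which takes part in assembling supercomplexes, 333 TPM, whereas the muscle form Cox7a1 had 5, 1 and 0 counts on the normal and 0, 1 and 0 on the denervated side. Cox8a averaged 318 TPM, with 0 counts of the muscle form Cox8b in 5 libraries and 1 count in the denervated library of 899, and 2 counts in all of Cox8c, a testis form. Cox7c averaged 479.5 TPM.

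Cox7b, a small complex IV subunit encoded on chromosome X, was the member that differed most between animals in TPM among those above 5 TPM. It stood at 146.7, 350.2 and 355.2 TPM in the normal libraries of 890, 892 and 899 and at 137.7, 349.4 and 282.7 TPM in the denervated libraries. Both libraries of animal 890 were low and all 4 of the others high. In CPM, the values were 55.8, 140 and 143.2 on the normal and 58.1, 143 and 109.1 on the denervated side, so the highest animal exceeded the lowest by 2.48-fold over both sides. Among the 12310 tested genes, 3.13% had a larger range between animals on that log2 scale, and the median range was 0.18 for members and 0.23 for all tested genes. Atp5l, listed with 1 to 26 counts, was the only member with a larger range, 1.66 on the log2 scale against 1.31 for Cox7b, and Uqcr11 was next with 0.51. The matrix kept 95.2% of the estimated counts of Cox7b, and no cause of the difference was tested. Its relative Cox7b2, a testis form, was listed at 0 counts in all 6 libraries.

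In complex V the catalytic beta subunit Atp5b had 799.1, 820.2 and 799.6 TPM in the normal and 864.2, 822.4 and 778.4 TPM in the denervated libraries. Atp5l and Atp5k, the membrane subunits g and e, averaged 616 and 574.5 TPM. The c ring that turns in the membrane is encoded by 3 genes for the same mature protein. Of these Atp5g2 averaged 562 TPM, Atp5g3 384 TPM and Atp5g1 157 TPM, the same order in each of the 6 libraries. Reads of Atp5g2 and Atp5g1 are shared with copies, and the matrix kept 18.3% and 53.5% of their estimated counts. Atp5s, a coupling factor that is not a structural subunit, was the least abundant member of this group at 10.2 TPM.

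The study compared the sides to see what nerve removal changes in these cells. No member of any complex was called in either direction in the comparison over all 3 animals. In edgeR's quasi-likelihood test with the animal as a block and adjusted p below 0.05, 0 of the 75 tested members passed, against 3.46% of all 12310 tested genes. Those 426 genes were 355 higher (2.88%) and 71 lower (0.577%) on the denervated side. At an unadjusted p below 0.05 there was 1 member, against 18.2% of all tested genes. That member was lower, as were 7.86% of tested genes at that p, and the smallest adjusted p of a member was 0.211. When libraries were scaled by their totals instead of TMM factors, the calls over all genes were 172 higher and 118 lower, with 0 members. On the estimated counts 0 members were called, against 3.2% of genes. Without the animal term 0 genes were called in all, and 0 members had an unadjusted p below 0.05. DESeq2 with the same block called 0 members, against 4% of genes, and gave 0 members at an unadjusted p below 0.05, against 11.9%. It gave no adjusted p for some tested members, among them Ndufa5, Ndufs3 and Atp5g2, so these could not be called. The 4% is a share of all 12310 tested genes, including those without an adjusted p. Limma on log2(TPM + 1) called 0 members, against 0.00843% of genes (1), and gave 10 members at an unadjusted p below 0.05, against 15.6%. With library totals 7 of 75 members were at that p (21.5% of genes), and on the estimated counts with library totals 10 of 75 (20.4%). Without animal 890 there were 15 of 76, a larger share than that of all genes (14.3%).

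The exception was Atp5g1, which encodes the c ring subunit of complex V and was called lower on the estimated counts without animal 890. In that fit 1 of 75 members passed, against 4.03% of genes, and 15 had an unadjusted p below 0.05, against 14.5%. Atp5g1 had 1361.7, 1318.8 and 922.5 estimated counts on the normal and 495.2, 762.7 and 584.6 on the denervated side. Its TPM was 150.1, 172.3 and 188.6 against 145.5, 152.8 and 134, lower on the denervated side of each animal but by little in 890. By CPM of the whole-number matrix the denervated skin of 890 was higher, at 27.2 against 25.1. The log2 fold change was −0.34 without animal 890 (adjusted p = 0.0415 by edgeR). It was −0.20 on the estimated counts of all 3 animals (adjusted p = 0.36), −0.14 on the whole-number counts (adjusted p = 0.558) and −0.26 on these without animal 890 (adjusted p = 0.316). The matrix kept 53.5% of its estimated counts, and the gene was not called in any other setting run (adjusted p from 0.181 to 0.998).

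The authors' deposited table gives an adjusted p for 65 members, the smallest 0.51. An adjusted p below 0.05 was listed for 0 members, against 7.27% of its 6752 genes with an adjusted p. At an unadjusted p below 0.05 there were also 0 members, and the share of all its genes at that p is not given here.

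The intervals say how large a change these data leave room for. In 72 of the 75 members the 95% interval of the fold change lay within a 1.5-fold change in either direction, and in 30 within a 1.2-fold change. The exceptions to the 1.5-fold limit were Ndufb4, Atp5l and Atp5s, all below 10 CPM in every library, and the median distance from the estimate to the end of its interval was 0.22 on the log2 scale. The 8 members that did not reach the minimum for testing were Ndufs5, Cox4i2, Cox6a2, Cox6b2, Cox7a1, Cox7b2, Cox8b and Cox8c.

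Fitted log2 fold changes were small and mostly below 0. Of the 75 tested members 62 were below 0, or 82.7%, against 54.7% of all tested genes, and the median was −0.07 (interquartile range −0.13 to −0.03) against −0.02 for all tested genes (−0.17 to 0.12). By complex the median was −0.10 in complex I (31 of 35 below 0), −0.04 in complex II (4 of 4), −0.07 in complex III (6 of 8), −0.05 in complex IV (7 of 11) and −0.07 in complex V (14 of 17). Members with a lower denervated value in each of the 3 animals numbered 15 (20.0%, against 21.4% of all tested genes), and 1 was higher in 3 of 3 (1.33%, against 19.3%). Members whose CPM did not overlap between sides numbered 4 lower (5.33%, against 9.21%) and 0 higher (against 9.77%).

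Those 4 genes, Ndufa5, Ndufa9, Ndufs1 and Ndufs7, all belong to complex I, which holds 35 of the 75 tested members. They are 11.4% of those 35, close to the 9.21% of all tested genes. Ndufs7, a core subunit that holds the last iron-sulfur cluster before ubiquinone, had 33.2, 34.2 and 35.9 CPM on the normal and 31.2, 31.0 and 26.2 CPM on the denervated side. All 3 denervated values lay below all 3 normal ones, with a log2 fold change of −0.23 ± 0.11 (SE; adjusted p = 0.278 by edgeR). Ndufa5, an accessory subunit, had 14.6, 15.6 and 16.4 CPM against 11.9, 14.4 and 12.5 CPM, a log2 fold change of −0.26 ± 0.14 (SE; adjusted p = 0.337). Ndufa9, an accessory subunit near the quinone site, had 55.6, 56.1 and 58.5 CPM against 55.3, 52.4 and 47.8 CPM, so that the lowest normal and the highest denervated value were close. Ndufs1 had 86.9, 89.6 and 87.0 CPM against 79.5, 83.8 and 82.9 CPM. Their adjusted p-values were 0.462 and 0.531, so none of the 4 was called.

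Ndufv3, a small subunit of the NADH-binding arm, had the smallest p of all members. It stood at 47.0, 56.9 and 46.9 CPM in the normal and 38.1, 50.6 and 41.5 CPM in the denervated libraries. It was lower in each animal, by 0.30, 0.17 and 0.18 on the log2 scale, although the sides overlapped because animal 892 was the highest on both. The log2 fold change was −0.21 ± 0.09 (SE), with a 95% interval from −0.40 to −0.03. Its adjusted p was 0.211 by edgeR. Ndufc1 was also lower in each animal, at 15.2, 17.5 and 15.9 CPM against 12.2, 16.8 and 12.9 CPM (log2 fold change −0.22 ± 0.14 SE, adjusted p = 0.419). Ndufb10 was the only member higher in 3 of 3 animals, with differences that rounded to 0.00, 0.05 and 0.02 on the log2 scale (adjusted p = 0.918).

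In the other complexes the members with the smallest p were further from the threshold. In complex II, Sdhd had a log2 fold change of −0.13 ± 0.10 (SE; adjusted p = 0.532) with 49.6, 52.3 and 56.6 CPM on the normal and 53.9, 48.1 and 43.1 CPM on the denervated side, and Sdha −0.05 ± 0.07 (adjusted p = 0.749). In complex III, Uqcrc1, a core protein, had −0.11 ± 0.08 (adjusted p = 0.483). Uqcrfs1 was among the few members above 0, at 60.9, 66.9 and 56.2 CPM on the normal and 76.3, 64.7 and 58.1 CPM on the denervated side, where the denervated library of 890 was the highest (log2 fold change 0.11 ± 0.09 SE, adjusted p = 0.57). In complex IV, Cox7a2 had −0.14 ± 0.10 (adjusted p = 0.504) and Cox6c −0.13 ± 0.10 (adjusted p = 0.508), while Cox4i1 had 0.01 ± 0.08 (adjusted p = 0.943).

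In complex V the count used moved the log2 fold change most for Atp5g2 and Atp5l, and the case of Atp5g1 is given above. Atp5mpl, a small proteolipid subunit, had 24.4, 26.7 and 30.01 CPM on the normal and 23.6, 26.2 and 19.8 CPM on the denervated side, and the low value of 899 carried its log2 fold change of −0.22 ± 0.13 (SE; adjusted p = 0.389). Atp5g2 had the highest log2 fold change of all members, 0.17 ± 0.11 (SE; adjusted p = 0.462), with 21.2, 26.8 and 28.5 CPM on the normal and 26.9, 30.9 and 27.7 CPM on the denervated side. On the estimated counts, of which the matrix kept 18.3%, it was −0.01. Atp5l had the lowest, −0.46 ± 0.53 (SE; adjusted p = 0.694), from the few counts given above, and −0.09 on the estimated counts. Atp5s had −0.24 ± 0.18 (SE; adjusted p = 0.514) and was lower in each animal, and Atp5b had 0.05 ± 0.09.

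The members' side differences lay close together within an animal, and on the TMM scale their direction differed between animals. The side difference of a member within an animal is its log2 CPM on the denervated minus the normal side, on TMM-scaled libraries. In animal 890 its median over the 75 members was 0.11, with 20 members below 0. In animal 892 it was −0.06, with 53 below 0, and in animal 899 it was −0.26, with 70 below 0. The medians over all tested genes were −0.02, −0.01 and −0.01, with 51.9%, 51.3% and 52.5% of them below 0. The middle 50% of members spanned 0.18, 0.15 and 0.21 in the 3 animals, against 0.45, 0.36 and 0.32 for all tested genes. The median level was 152 TPM for members against 18.9 TPM for tested genes, and the part of level in these spans was not tested.

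**Figure D3:**
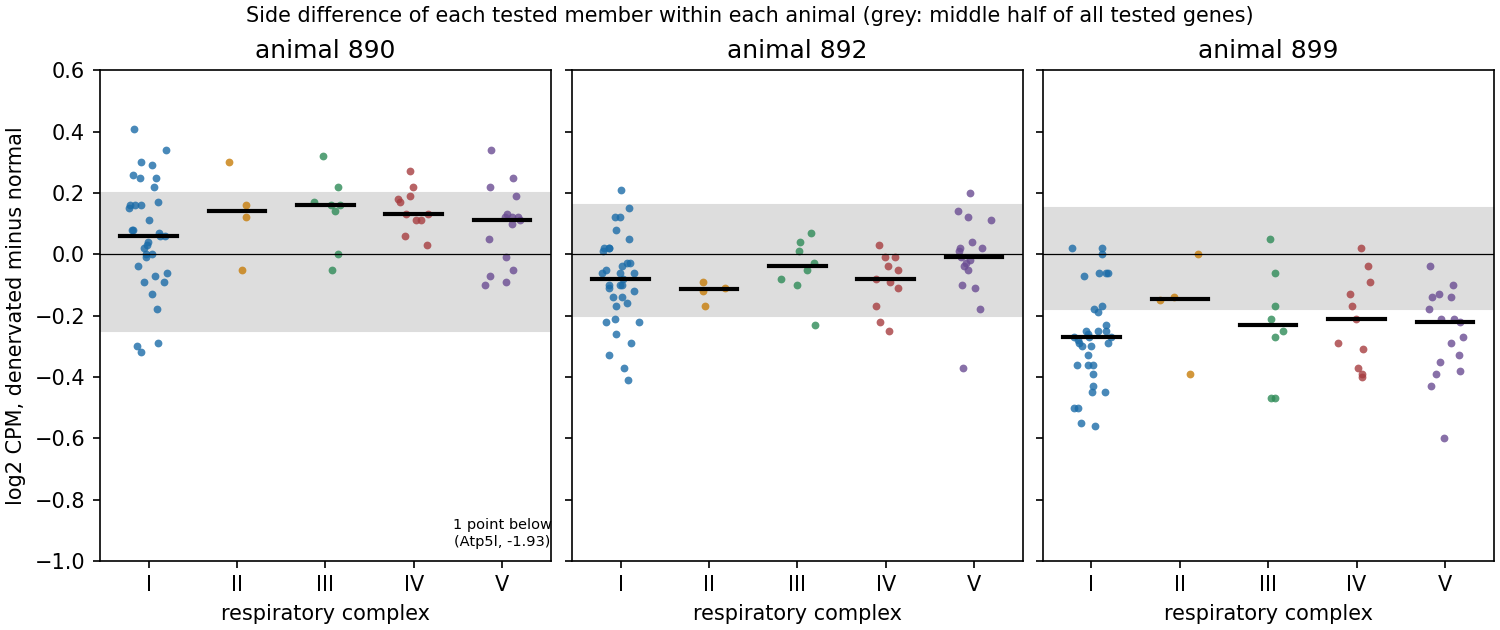
Side difference in log2 CPM (denervated minus normal, y axis) of each tested member in each of 3 animals (panels), by complex (x axis, colours), with a bar at the median of each complex and a grey band over the middle 50% of all tested genes. On this TMM scale all 5 medians lie above 0 in animal 890 and below 0 in animals 892 and 899, lowest in 899.

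On the TMM scale the median side difference of each complex was highest in animal 890 and lowest in 899. For complexes I to V the medians were 0.06, 0.14, 0.16, 0.13 and 0.11 in animal 890, then −0.08, −0.11, −0.04, −0.08 and −0.01 in 892, and −0.27, −0.15, −0.23, −0.21 and −0.22 in 899. All 11 tested members of complex IV were above 0 in animal 890, and all 17 of complex V were below 0 in animal 899. Of all tested genes, 51.9% were below 0 in animal 890 and 52.5% in 899. Scaled by library totals, the medians over all members became 0.04, −0.13 and −0.30, beside −0.09, −0.08 and −0.05 over all genes. On log2(TPM + 1) they were 0.00, −0.09 and −0.20, beside −0.10, −0.02 and 0.04. The median over all members thus kept the order of the animals on the 3 scales, and in animal 890 it fell from 0.11 to 0.00. Single complexes did not all keep it. In animal 890 complex I had −0.01 with library totals and −0.04 on log2(TPM + 1), and complex V had −0.06 on log2(TPM + 1), below its −0.05 in 892. Complex II had −0.19 in both 892 and 899 with library totals, and −0.16 in 892 against −0.08 in 899 on log2(TPM + 1). Of the 11 tested members of complex IV, 2 were below 0 in animal 890 with library totals and 4 on log2(TPM + 1). Leaving out animal 899 brought the median log2 fold change of members to 0.00, with 38 of 76 below 0. Leaving out 890 brought it to −0.15, with 73 of 76 below 0. The median over all genes was −0.02 in both fits, and their share below 0 is not given here. The denervated library of 890, the shallowest, also lay farthest out on the leading principal component of all tested genes, and its part in the members' values was not tested beyond leaving out the animal.

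The summed level of each complex was also read in TPM, which is relative to the total of its library. All members together summed to 16990, 18800 and 18290 TPM in the normal and 16890, 17810 and 16020 TPM in the denervated libraries of 890, 892 and 899. The denervated sum was lower in 3 of 3 animals, by the least in 890 and the most in 899. Complex I summed to 4418 ± 203.6 TPM (SD, n = 3) on the normal and 4087 ± 277.6 TPM on the denervated side, and complex V to 6945 ± 246.5 and 6515 ± 345.2 TPM. Complex IV summed to 4317 ± 339.8 and 4124 ± 177.5 TPM, complex III to 1995 ± 153.6 and 1855 ± 93.4 TPM, and complex II to 349 ± 17.0 and 328 ± 9.94 TPM. In complexes I and V the denervated sum was lower in 3 of 3 animals, and in complexes II, III and IV it was slightly higher in animal 890. In each of the 5 complexes the sums of the 2 sides overlapped.

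**Figure D4:**
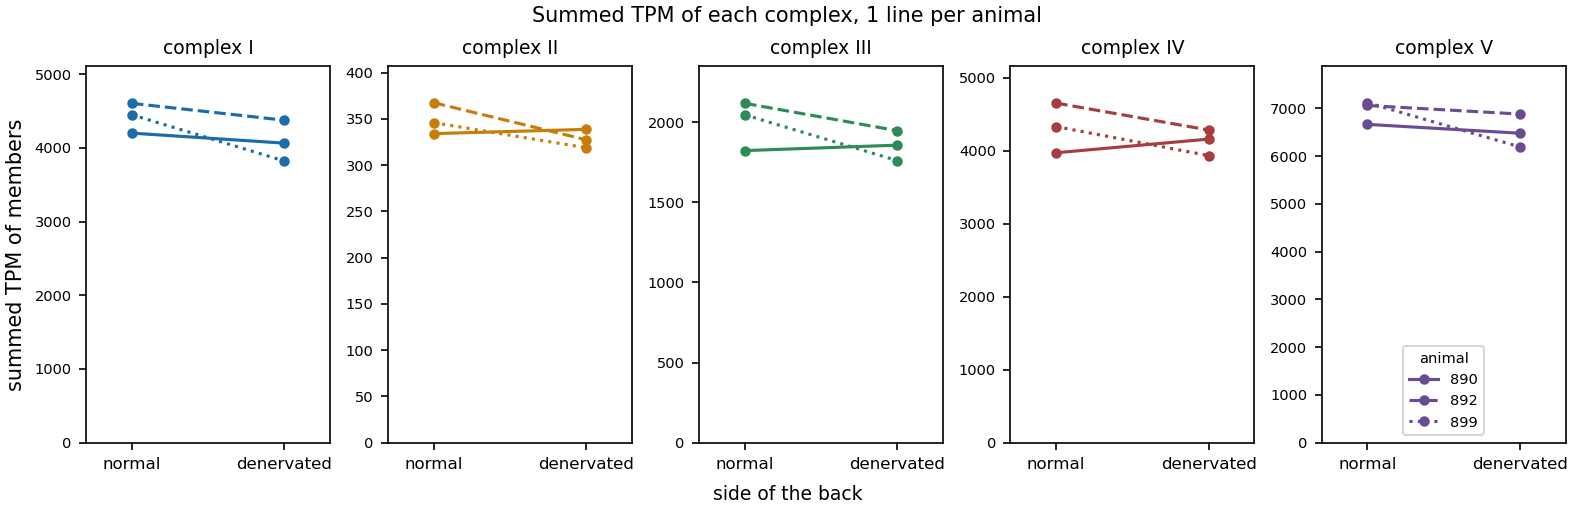
Summed TPM of the members of each complex (y axis from 0, 1 panel per complex) on the normal and denervated side (x axis), with 1 line per animal. Lines of animal 890 rise slightly in complexes II, III and IV, while those of 899 fall in all 5 panels.

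Transcript length moved with these differences. Over all tested genes, the median side difference of those under 500 bases was 0.00, −0.14 and −0.24 in animals 890, 892 and 899, and of those of 4000 bases or more −0.03, 0.05 and 0.06. Short genes thus stood below long ones in 892 and 899, where the members were also below 0. Of the 75 members, 50 are shorter than 1000 bases. The 36 members of at least 500 and under 1000 bases had medians of 0.12, −0.08 and −0.25, beside 0.06, −0.07 and −0.18 for the 739 tested genes of that length. From 1000 to under 2000 bases they were 0.12, −0.04 and −0.25 (21 members), beside 0.02, −0.05 and −0.09 (2724 genes). The part of length in the members' values was not tested.

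**Figure D5:**
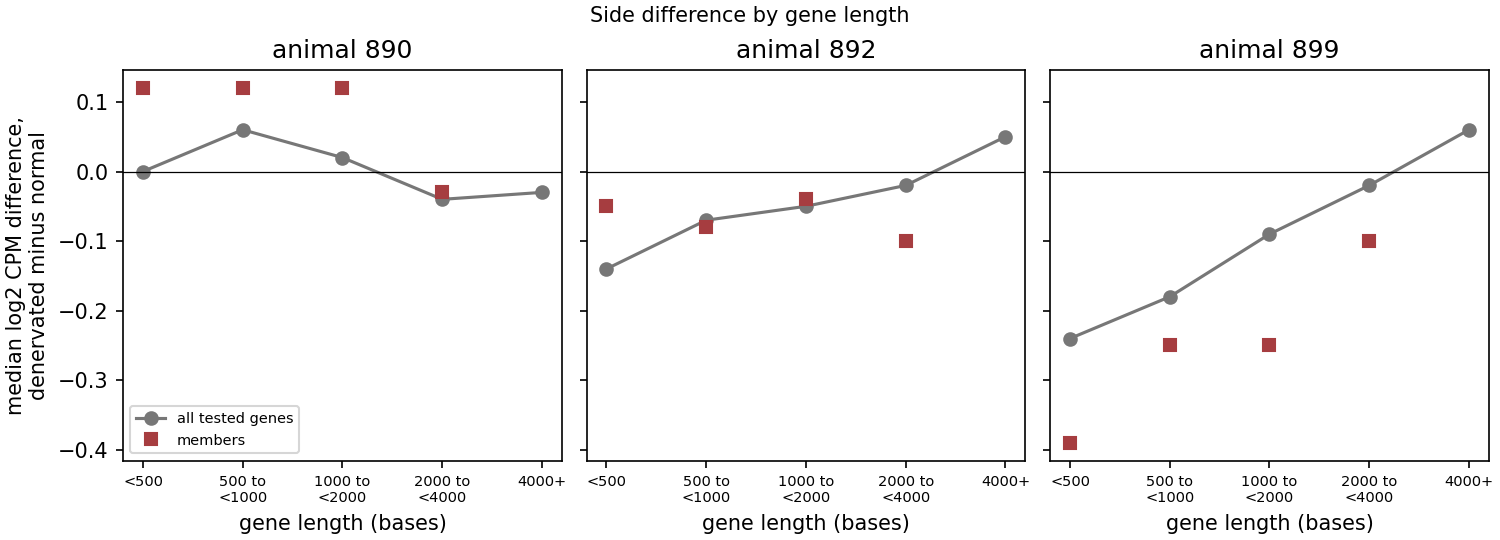
Median side difference in log2 CPM (y axis) by deposited gene length in bases (x axis, 5 classes) in each animal (panels), with grey circles for all tested genes and red squares for members, of which none has 4000 bases or more. In animals 892 and 899 the grey line rises with length, and in 890 it does not.

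Genes that work with the subunits were read from the same test, which called 3.46% of all tested genes. The lists were subunits and partners whose names the rule misses, the assembly factors of each complex, regulators of mitochondrial biogenesis, the citric acid cycle, coenzyme Q synthesis, mitochondrial protein import and the mitochondrial ribosome. Among 8 partners, including Cyc1 and Cycs (cytochromes c1 and c), 0 passed, with a median log2 fold change of −0.09. Higd1a, an inner membrane protein that acts on complex IV, was closest, at 50.1, 48.5 and 43.1 CPM on the normal and 35.0, 42.1 and 36.8 CPM on the denervated side. Its log2 fold change was −0.31 ± 0.10 (SE; adjusted p = 0.0963). It was lower in each animal and its sides did not overlap. The other of the 2 smallest p-values was that of Ndufa4l2, the hypoxia-induced relative of Ndufa4, at −0.19 ± 0.08 (adjusted p = 0.203).

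Assembly factors of the complexes gave 0 calls among 52 tested genes. The medians were −0.18 for 16 factors of complex I, −0.30 for 4 of complex II, −0.14 for 6 of complex III, −0.13 for 22 of complex IV and −0.07 for 4 of complex V. Acad9, an assembly factor of complex I, had −0.28 ± 0.08 (SE; adjusted p = 0.0731) and Uqcc1, of complex III, −0.44 ± 0.13 (SE; adjusted p = 0.0719), both lower in each animal. Tmem126b, of the complex I assembly complex, had −0.65 ± 0.21 (adjusted p = 0.118). Cox17, the copper chaperone of complex IV, had −0.47 ± 0.18 (adjusted p = 0.167) and Sco1, to which it passes copper, 0.39 ± 0.17 (adjusted p = 0.245). The 2 smallest p-values of the remaining lists belonged to Sdhaf1 and Sdhaf3 (adjusted p = 0.432 and 0.478) and to Tmem70 and Atpaf2 (0.468 and 0.592).

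Of 18 tested regulators of mitochondrial biogenesis 1 rose and 1 fell, beside 2.88% and 0.577% of all tested genes. Pprc1, a coactivator of the PGC-1 family that acts with NRF1, rose from 153, 123.9 and 152.2 CPM on the normal to 203.8, 204.3 and 182.4 CPM on the denervated side. Every denervated value lay above every normal one, with a log2 fold change of 0.47 ± 0.09 (SE; adjusted p = 0.0145, edgeR with the animal block). The call was lost without the animal term (adjusted p = 0.163) and without animal 892 (0.101). Polg2, the accessory subunit of the mitochondrial DNA polymerase, fell from 8.41, 9.16 and 9.07 CPM to 3.55, 4.80 and 6.27 CPM (log2 fold change −0.88 ± 0.20 SE, adjusted p = 0.0322). That call was lost without the animal term (0.186), without animal 890 (0.0572) or 892 (0.111) and on the estimated counts (0.0572).

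In coenzyme Q synthesis 1 of 13 genes fell and 0 rose, beside 0.577% and 2.88% of all tested genes. Coq2, which attaches the isoprenoid tail to the ring of ubiquinone, stood at 35.8, 38.7 and 35.0 CPM on the normal and 25.1, 27.3 and 26.9 CPM on the denervated side, with no overlap (log2 fold change −0.47 ± 0.10 SE, adjusted p = 0.0245). Its adjusted p was 0.163 without the animal term, 0.158 without animal 892 and 0.0571 on the estimated counts. None of 17 citric acid cycle genes (median −0.03; Pcx and Sucla2 had the smallest p, adjusted p = 0.288 and 0.394), 20 import genes (median 0.01; Timm22 and Tomm5, 0.165 and 0.386) or 77 mitochondrial ribosomal genes passed. The mitochondrial ribosomal genes had a median of −0.07 with 52 below 0 (Mrps6 0.34 ± 0.13, adjusted p = 0.177, and Mrps11 −0.45 ± 0.18, 0.211). Their medians in animals 890, 892 and 899 were 0.07, −0.07 and −0.18, the same order as for the subunits.

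Promoters of the subunit genes were searched for the letters of known regulators, because NRF1, nuclear respiratory factor 1, is the factor through which Pprc1 is known to act. RefSeq promoters of the GRCm38.p6 build, from 250 bases before to 50 after the start, were matched by symbol for 66 of the 83 members. The NRF1 letters GCATGCGC were searched on both strands. In 5 members the matches on the 2 strands overlap and cover 10 bases, and 4 of these hold them before the start. They are shown in 60 bases with those 10 bases in capitals. Atp5g2 (chr15:102671055-102671114, minus strand) has them 42 bases upstream, Atp5k (chr5:108434415-108434474, minus strand) 50, Cox6a1 (chr5:115349086-115349145, minus strand) 162 and Ndufa11 (chr17:56717677-56717736, plus strand), a membrane subunit of complex I, 60.
Atp5g2: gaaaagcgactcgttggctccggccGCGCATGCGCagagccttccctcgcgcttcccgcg
Atp5k: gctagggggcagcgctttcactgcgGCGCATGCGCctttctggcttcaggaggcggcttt
Cox6a1: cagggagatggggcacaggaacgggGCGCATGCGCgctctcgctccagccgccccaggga
Ndufa11: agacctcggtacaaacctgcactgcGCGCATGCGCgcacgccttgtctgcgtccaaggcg

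The NRF1 letters were found on either strand in 10 of the 66 promoters (15.2%), in 3.05% of all 27018 and in 6.05% of the 9682 promoters of tested genes. The overlapping matches on both strands were found in 5 of 66 (7.58%), against 1.07% and 2.38%. The GABPA letters CCGGAAG were found in 16 (24.2%, against 9.93% and 20.3%), the YY1 letters AAGATGGCG in 7 (10.6%, against 1.64% and 3.67%) and the ESRRA letters TGACCTTG in 4 (6.06%, against 1.76% and 1.19%). The TATA letters TATAAA were found in 7 (10.6%, against 15.7% and 8.72%). The 66 promoters include those of untested members, unlike the promoters of tested genes beside them. Among these are Ndufs5 with the ESRRA letters and Cox7b2 and Cox8b with the TATA letters. A match describes letters only. The 4 genes printed had log2 fold changes of 0.17 (Atp5g2), −0.09 (Atp5k), 0.03 (Cox6a1) and −0.13 (Ndufa11), none of them called. For Atp5g2 the matrix kept 18.3% of the estimated counts, on which its log2 fold change was −0.01.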

How the data were processed

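Per the submitters' processing notes, STAR 2.6.1a, Salmon 0.11.2 and mm10 were used, without saying which made which values. The sources used here do not give the annotation, the count tool or its strand setting. The count matrix as deposited is raw and whole-number, and each library has a deposited file of estimated counts (not whole, rounded here), TPM and lengths (a score in bases), per the file headers. The authors' deposited comparison gives log2 fold changes, p-values, a mean normalised signal per side and a standard error (score).

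Groups and animal numbers came from the titles. The numbers pair the libraries, since the labels' protocols take the left and right skin of each mouse. Deviations from group means correlated across genes at 0.356, 0.361 and 0.443 within animals and between −0.278 and −0.0407 otherwise. The submitters' own design is not stated, and the animal block follows the question asked of these genes. Animals are the replicates (n = 3). The members, lists and marker genes were chosen with earlier results of these data known.

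Denervated was tested against normal with edgeR 4.0.16 (R 4.3.3): TMM factors, filterByExpr (minimum count 10, total 15), animal as block, Benjamini-Hochberg over 12310 genes, called below 0.05. Log2 CPM used a prior count of 2, and a standard error is the size of the log2 fold change divided by the square root of F. The script was tested on simulated data. Alternatives were DESeq2 1.42.0, limma 3.58.1 on log2(TPM + 1) and log2(TPM + 0.1), where folds of low genes are understated, other scalings, filters and thresholds, and leaving out each animal. The estimated counts with library totals, and without each animal in turn, were added after seeing the data. Copies were searched with BLAST 2.17.0 among GENCODE vM21 transcripts. Named singly were, by rule, the 3 most abundant members and the 2 with the smallest p of each complex, isoform families, untested members, members of 1 sign in all animals with the largest changes (up to 5 per direction), and, in other lists, genes past the threshold or otherwise the 2 of smallest p. The members whose CPM did not overlap, those with few counts against their estimate, those with promoter sites, Cox7b for its range between animals, Atp5g1 for its call in 1 setting and some catalytic subunits were named after their values were seen. Some values that the rule covers are not reported here.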

Additional observations from a re-analysis of the deposited data

How the results depend on the processing

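Leaving aside the alternatives added after seeing the data, 0 members were called under each one run, with smallest adjusted p from 0.104 (library totals) to 0.497 (without animal 892). Of the 4 added ones, the estimated counts without animal 890 called 1 member lower, Atp5g1 (adjusted p 0.0415; Uqcr11 0.0895, Cox6c 0.0973), and the others 0. The median of members stayed within the spread between animals (−0.26 to 0.11 on the TMM scale). This is no separate check, since every fit draws on the same animals. For all genes, 355 were higher and 71 lower, but 0 and 0 with no replicate block, 172 and 118 with library totals, 692 and 295 with no filter, 350 and 46 on the estimated counts, 131 and 62 on these with library totals (added), 449 and 43 with DESeq2, 0 and 1 with each limma setting, and 603 and 217 at adjusted p under 0.1. Leaving out an animal gave 215 to 671 higher and 33 to 305 lower on the counts, and 65 to 695 higher and 10 to 311 lower on the estimated counts (added), each lowest without 892 and highest without 899. The median of members ran from −0.15 (without 890) to 0.00 (without 899). The causes were not tested. The intervals of members reached a median of 0.22 to either side on the log2 scale, so smaller changes could go undetected in most members. These intervals are not adjusted for the number of genes tested. Ndufa5 (−0.26) and Ndufs7 (−0.23) had estimates larger than this median and were not called. Their own intervals ran from −0.57 to 0.04 and from −0.46 to 0.00. The size of change that a call needs was not determined.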
